A study of Saccharomyces cerevisiae with 6 samples.

Results

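The wine yeast Saccharomyces cerevisiae VL3, which the labels class as an enological strain, was compared between a fermentation with 25 mg/l of SO2 added and one with none. A gene entered the comparison when it had a value in both VL3 libraries and a mean of at least 5 RPKM over both, which held for 5042 of 6603 genes. RPKM scale the reads of a gene to its length and to all reads mapped in that library, so that levels are given per length. Just inside that limit lay HTC1 at a mean of 5 and GAT2 at 5.015, and just outside it YHR127W at 4.995 and FUR4 at 4.99. The limit removed 1257 of the 6299 genes with a value, and a further 304 had none in either library.

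Gene expression was profiled by RNA sequencing in 6 libraries from 4 strains. Both VL3 cultures had been pregrown in rich medium, moved to MS300, a synthetic must, and fermented at 25 °C in bioreactors, and cells were taken once 6 g/l of CO2 had been given off, in mid exponential growth. AWRI796, another enological strain, was profiled without and with SO2, and EC1118 (enological) and R008 (vineyard) are used here with SO2 alone. Each strain and SO2 level is 1 library, so no difference described here has a replicate check, and no test was made. Counts, medians and folds therefore describe 1 pair of libraries. In these bulk cultures, fewer cells with a transcript and less of it per cell cannot be told apart. Whether reads were counted by strand is not given in the sources used here, so reads of a gene and of an overlapping or antisense frame cannot be told apart.

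SO2 is the preservative of winemaking, and in water it gives sulfite, which reacts with carbonyl compounds and disulfide bonds. Saccharomyces cerevisiae exports sulfite through the plasma membrane pump SSU1 and can reduce it to sulfide for methionine and cysteine. During fermentation oxygen is soon used up, and the cells depend on stored or imported sterols and on isoforms of respiratory and sterol enzymes that are made when heme is scarce. The repressor Rox1, itself made only when heme is present, shuts off many of these hypoxic genes in air. When good nitrogen sources are at hand, GATA factors such as Gln3 are held back, and the permeases and enzymes for poor sources stay low, which is called nitrogen catabolite repression.

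Sequences that bear on these groups are shown first. GAP1 (general amino acid permease), MEP3 (ammonium permease) and GDH3 (glutamate dehydrogenase) belong to the group with the lowest median, the nitrogen catabolite repressed genes. The 300 bases before each start codon are given from the RefSeq genome R64, 5′ to 3′ on the gene's strand. Capitals mark GATAAG or its reverse complement CTTATC, the core bound by GATA factors. They lie at chr11:514763-515062 (plus strand) for GAP1, chr16:812454-812753 (minus strand) for MEP3 and chr1:31267-31566 (plus strand) for GDH3. GAP1 and MEP3 hold 2 matches each and GDH3 holds 3, of which the first 2 overlap and the last directly follows them.
GAP1: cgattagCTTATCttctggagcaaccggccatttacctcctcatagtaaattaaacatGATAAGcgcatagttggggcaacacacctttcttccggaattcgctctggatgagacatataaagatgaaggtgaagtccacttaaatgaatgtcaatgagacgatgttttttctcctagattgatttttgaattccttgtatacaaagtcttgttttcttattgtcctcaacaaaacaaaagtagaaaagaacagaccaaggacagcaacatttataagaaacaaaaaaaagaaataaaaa
MEP3: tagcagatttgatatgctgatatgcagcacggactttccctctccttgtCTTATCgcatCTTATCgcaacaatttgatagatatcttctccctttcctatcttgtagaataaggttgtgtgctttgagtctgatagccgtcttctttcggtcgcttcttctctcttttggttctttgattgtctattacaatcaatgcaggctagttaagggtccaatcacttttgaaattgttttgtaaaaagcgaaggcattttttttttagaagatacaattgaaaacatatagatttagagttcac
GDH3: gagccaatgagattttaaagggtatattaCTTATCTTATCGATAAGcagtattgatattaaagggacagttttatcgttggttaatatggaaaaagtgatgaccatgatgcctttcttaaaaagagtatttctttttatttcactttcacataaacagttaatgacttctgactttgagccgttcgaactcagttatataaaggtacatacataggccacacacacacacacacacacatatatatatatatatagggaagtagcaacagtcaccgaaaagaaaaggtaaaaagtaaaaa

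COX5A and COX5B encode exchangeable isoforms of subunit 5 of cytochrome c oxidase, the first made in air and the second under low oxygen. They are shown because COX5A stood more than 2-fold higher with SO2 while COX5B hardly differed. Their upstream bases lie at chr14:531425-531724 for COX5A and chr9:154922-155221 for COX5B, both on the plus strand. Capitals mark CCAAT or its reverse complement ATTGG, the core bound by the Hap2/3/4/5 complex, with 2 matches in each.
COX5A: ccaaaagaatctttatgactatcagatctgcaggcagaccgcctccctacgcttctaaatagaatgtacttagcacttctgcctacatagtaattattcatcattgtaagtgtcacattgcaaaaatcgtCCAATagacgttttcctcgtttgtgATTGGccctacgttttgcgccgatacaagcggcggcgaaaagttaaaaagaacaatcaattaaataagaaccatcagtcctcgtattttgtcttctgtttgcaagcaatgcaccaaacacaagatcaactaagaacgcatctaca
COX5B: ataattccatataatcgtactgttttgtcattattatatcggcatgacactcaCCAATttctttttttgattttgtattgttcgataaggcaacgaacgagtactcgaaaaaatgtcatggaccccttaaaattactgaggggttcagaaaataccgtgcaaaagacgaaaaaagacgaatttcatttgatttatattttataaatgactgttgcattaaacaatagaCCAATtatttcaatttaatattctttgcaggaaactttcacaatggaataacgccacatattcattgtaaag

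Levels are given as scaled RPKM, the deposited RPKM divided by 1 factor per library (0.891 without SO2 and 0.999 with it) that evens out the median gene. Differences are on log2(scaled RPKM + 1), with SO2 minus without, and every fold is on that scale, which understates folds at low levels. With SO2, 539 genes were at least 1.5-fold higher (10.7% of those compared) and 504 at least 1.5-fold lower (10.0%). At 2-fold these were 151 higher (2.99%) and 124 lower (2.46%). The median gene stood at -0.02, and the interquartile range of all genes ran from -0.31 to 0.30. Without the factors the median moved to 0.15 and 895 genes were at least 1.5-fold higher against 294 lower, so that 75.3% of such genes were higher in place of 51.7%. Differences are read here relative to the scaled median. Each count over a list is to be read beside the 10.7% higher and 10.0% lower of all genes.

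**Figure D1:**
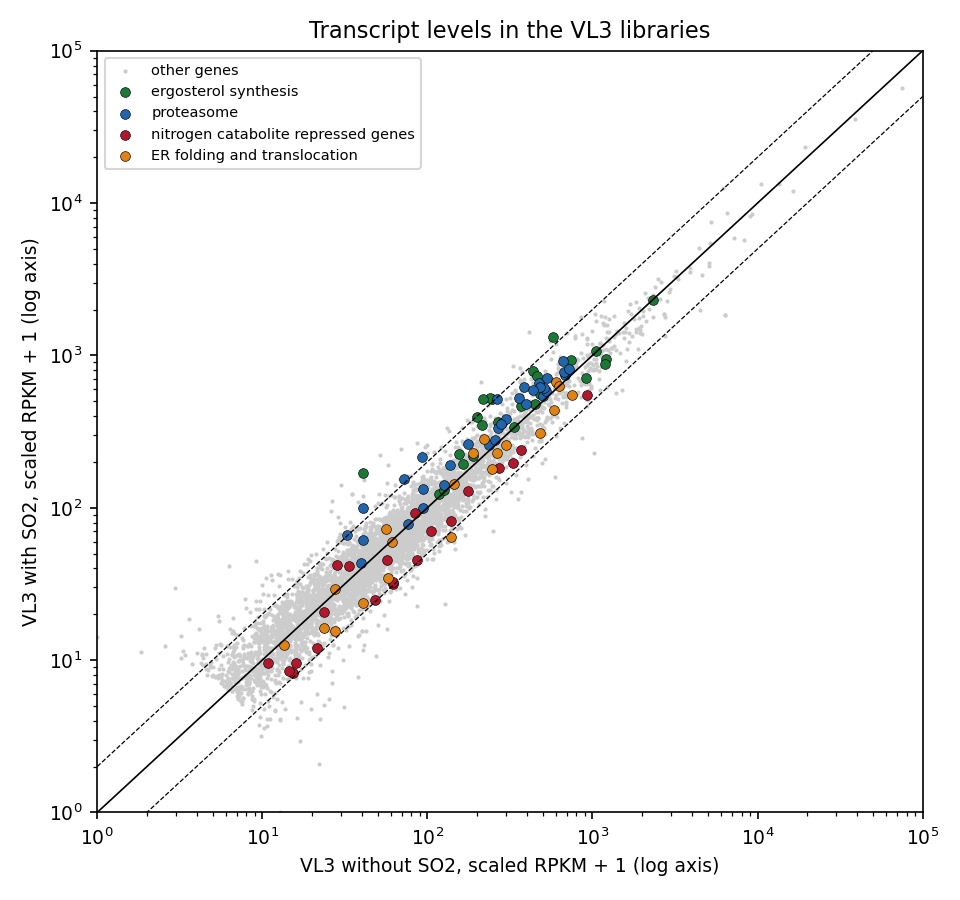
Scaled RPKM + 1 of each compared gene in VL3 without SO2 (x axis) and with SO2 (y axis), both log axes, with the line of equality and dashed lines at 2-fold. Ergosterol synthesis and proteasome genes lie mostly above the line, nitrogen catabolite repressed genes mostly below it.

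The spread of differences depended on level and length. In the lowest quintile of levels (means of 5.30 to 19.1) 28.2% of genes were past 1.5-fold in either direction, against 17.5% in the highest quintile. Genes of the shortest quintile (75 to 648 bases) had a median of 0.08 and those of the next to longest -0.09. The VL3 library without SO2 lay outside the range of the other strains more often than the one with SO2. Of the 4 other-strain libraries, only that of AWRI796 without SO2 had none added. A response to SO2 shared by the strains would therefore give the same placing. Of 520 genes at least 1.5-fold higher that had values in all 6 libraries, 42.5% were below all 4 other-strain libraries without SO2 and within their range with SO2, against 11.4% of all 4909 such genes. Of 479 genes at least 1.5-fold lower, 48.2% were above all 4 without SO2 and within their range with SO2, against 13.9%. The opposite arrangement, within the range without SO2 and outside it with SO2 in the direction of the difference, held for 13.8% and 10.9%, against 6.23% and 4.93% of all. Outside the range on opposite sides in both VL3 libraries were 15% of the higher genes, against 2.08% of all, and 8.56% of the lower genes, against 1.14%. Levels of different strains also carry differences in gene models and mapping. Whether SO2 or the single library without it accounts for these differences cannot be told apart.

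Transporters, a heme enzyme and a sterol enzyme were among the 15 genes with the widest differences upward. STL1 (glycerol and proton symporter, chromosome 4, 1508005 to 1509714) stood at 1.96 without SO2 and 28.9 with it, 10.10-fold higher. HXT2, a high-affinity glucose transporter, stood at 1.57 and 11.3, 4.78-fold higher. HMX1, the heme oxygenase, stood at 2.22 and 13.3, 4.44-fold higher. These started near the bottom of the measured range, where differences between the libraries were widest. At higher levels, GRE1, which encodes a hydrophilin of osmotic stress, stood at 29.0 and 140, 4.69-fold higher. FRE2, a ferric reductase of the plasma membrane, stood at 25.3 and 110, 4.23-fold higher. HMG1 (HMG-CoA reductase, chromosome 13, 115734 to 118898) stood at 39.7 and 167, 4.13-fold higher. In the other strains HMG1 lay between 40.3 and 66.9, so that the VL3 value with SO2 was far above them and the one without just below. The rest of the 15 highest ran from 3.33-fold (PAU23) to 6.06-fold (YMR244W) and included PRM7, ROX1, KEL2, GFD2, ARG1 of arginine synthesis, PXR1 of rRNA processing and the mitochondrial ribosomal protein gene MRP49.

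The 15 genes with the widest differences downward included membrane proteins of the endoplasmic reticulum, a surface protease and minor isoenzymes. SHH3 (YMR118C), a homologue of a succinate dehydrogenase subunit, stood at 21.2 without SO2 and 1.09 with it, 10.6-fold lower. YET2, a protein of the endoplasmic reticulum membrane, stood at 127 and 22.4, 5.47-fold lower, and between 24.6 and 47.7 in the other strains. SCS3, also of that membrane and needed for growth without inositol, stood at 1026 and 228, 4.48-fold lower, against 81.4 to 223 in the other strains. For YET2 and SCS3 it was thus the library without SO2 that lay far above the others. SGA1, a glucoamylase that breaks down glycogen, stood at 24.3 and 4.58, 4.54-fold lower. GND2, the minor 6-phosphogluconate dehydrogenase, stood at 247 and 69.4, 3.53-fold lower. GIT1, a permease for glycerophosphoinositol, stood at 25.4 and 6.11, 3.71-fold lower. RPS22B, of the small ribosomal subunit, was 3.72-fold lower, from 591 to 158, whereas its paralogue RPS22A stood at 157 and 242. RPS22B, at 129 to 187 in the other strains, thus stood apart in the library without SO2. The rest of the 15 lowest ran from 3.50-fold (MDE1, of methionine salvage) to 5.70-fold (YNL042W-B), with RTA1, IRC4, YPS6, ICL2, YJL077W-B and SPS19, which overlaps another reading frame.

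ROX1, the hypoxic repressor, showed the widest difference of all transcription factors compared, and other oxygen regulators stood on the same side. Of 168 factors listed, 131 could be compared, of which 17 were at least 1.5-fold higher and 12 lower, beside 10.7% and 10.0% of all genes, with a median of -0.03 that became 0.13 without scaling. In the class of oxygen, heme and sterol factors 5 of 12 were higher and 0 lower, at a median of 0.26. ROX1 (chromosome 16, 679693 to 680799) stood at 8.20 without SO2 and 43.4 with it, 4.83-fold higher. Elsewhere in the series ROX1 lay between 12.8 and 17.5, so that one VL3 library was below and the other above every other strain. MOT3, a repressor that acts with Rox1 on hypoxic genes, stood at 11.6 and 29.4, 2.41-fold higher. HAP4, the activating subunit of the Hap2/3/4/5 complex of respiratory genes, stood at 13.3 and 32.9, 2.37-fold higher, and its partner subunit HAP5 at 12.3 and 22.7. HAP4 lay between 24.8 and 42.2 in the other strains, so that its low value was the one without SO2, while MOT3, at 6.32 to 16.1 there, was high with SO2. HAP2 and HAP3, the other subunits, stood at 13.1 and 15.1 and at 63.7 and 53.4. SUT2, related to a sterol uptake factor, stood at 5.58 and 9.91. HAP1, the heme-dependent activator, stood at 74.5 and 63.2, and UPC2 and ECM22, the activators of sterol genes, had differences of -0.28 each.

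**Figure D2:**
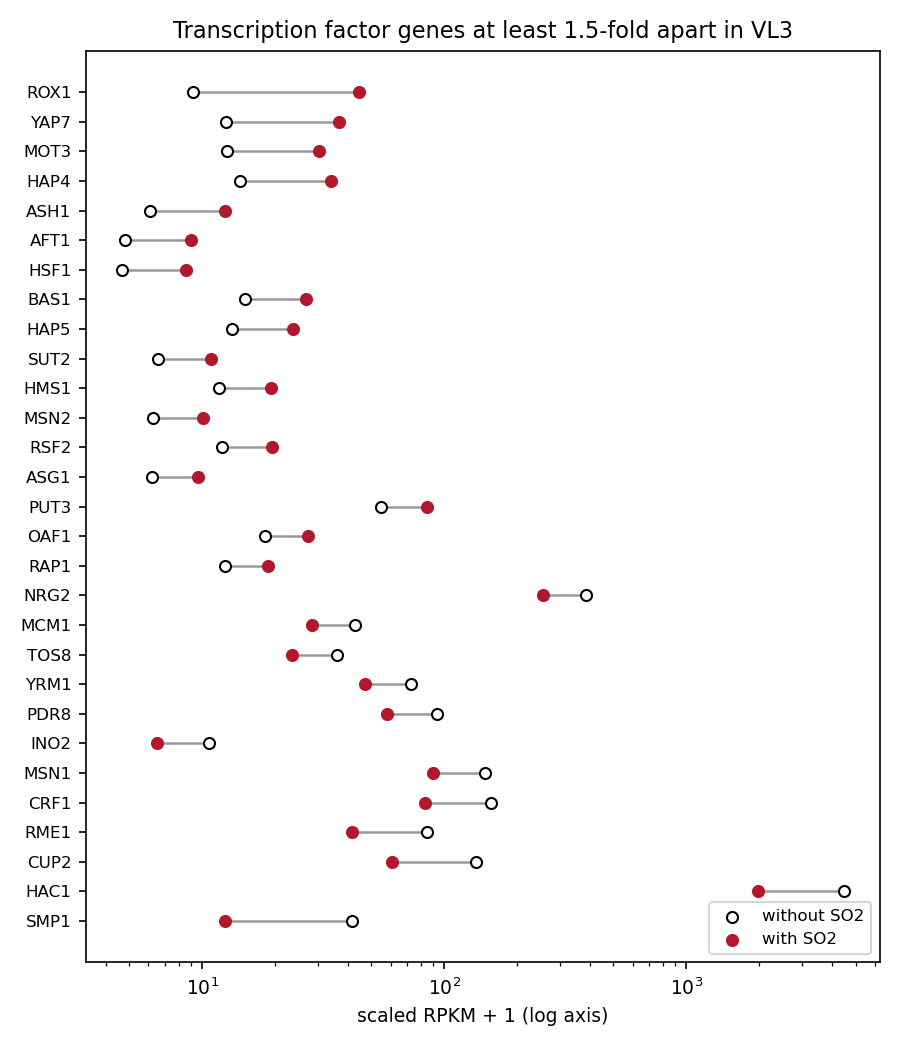
The 29 transcription factor genes at least 1.5-fold apart, as scaled RPKM + 1 (log axis), without SO2 (open circles) and with SO2 (filled circles). ROX1 at the top went from 8.20 to 43.4 scaled RPKM, and HAC1 has by far the highest levels.

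The other factors higher with SO2 came from several pathways. YAP7, a bZIP factor, stood at 11.5 and 35.6, 2.93-fold higher, with other strains between 12.7 and 19.6. HSF1, the heat shock factor, stood at 3.67 and 7.58, and MSN2, of the general stress response, at 5.24 and 9.12. AFT1, the activator of iron uptake, stood at 3.79 and 8.04. BAS1, of purine and histidine synthesis, stood at 14.1 and 26.0, and PUT3, the proline activator, at 54.0 and 84.3. The remaining ones were ASH1 (2.03-fold), HMS1, RSF2, ASG1, OAF1 and RAP1. Of the 17 higher factors 10 lay in the lowest quintile of levels, where differences were widest, against 1 of the 12 lower.

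The factors lower with SO2 included regulators of the unfolded protein response, of copper and of inositol. HAC1, which turns on the unfolded protein response once its mRNA is spliced, stood at 4464 without SO2 and 1974 with it, 2.26-fold lower, against 1111 to 2064 in the other strains. These gene-level values do not separate spliced from unspliced HAC1 mRNA. SMP1, a MADS-box factor of the osmotic stress response, stood at 40.4 and 11.5, 3.32-fold lower. CUP2, the activator of metallothionein genes, stood at 135 and 59.6, 2.24-fold lower, but overlaps YGL165C. The metallothionein genes CUP1-1 and CUP1-2 were listed at the same 6395 and 1829, and as identical copies their reads cannot be assigned. RME1, a repressor of meiosis, stood at 83.7 and 40.6, and CRF1, a corepressor of ribosomal protein genes, at 154 and 82.6. INO2, the activator of inositol synthesis, stood at 9.68 and 5.51. PDR8 and YRM1, both of multidrug resistance, were 1.60-fold and 1.56-fold lower, and 7 of the 8 factors of that class lay below 0. MSN1, TOS8, MCM1 and NRG2 were between 1.5-fold and 1.64-fold lower.

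Isoforms made in air stood higher with SO2 while most of their low-oxygen partners hardly differed. Of 5 pairs, 4 had an aerobic member that could be compared, and all 4 were at least 2-fold higher, by 1.03 to 2.05 on the log2 scale. The low-oxygen members other than CYC7 differed by 0.05 to 0.24. COX5A (chromosome 14, 531725 to 532186), whose promoter is printed above, stood at 28.2 and 61.7, and COX5B at 320 and 332. The COX5B share of that pair was 91.9% without SO2 and 84.3% with it. HMG2, the partner of HMG1 in the first committed step of sterol synthesis, stood at 163 and 192, and its share of the pair was 80.4% and 53.5%. HYP2 and ANB1 encode the translation factor eIF5A. HYP2 stood at 131 and 333, though it overlaps YEL034C-A, and ANB1 at 801 and 945. PET9, the main mitochondrial ADP/ATP carrier, stood at 8.45 and 18.2, and its anaerobic partner AAC3 at 49.6 and 51.7. Against the other strains, COX5A and HMG1 in VL3 with SO2 were above every library, COX5A at 27.5 to 43.2 there. HYP2, at 241 to 390 there, was below every library in VL3 without SO2 and within that range with it. PET9, at 18.3 to 36.0 there, was below every library in both VL3 libraries, though only just with SO2. In all 4 pairs the low-oxygen isoform remained the more abundant in both VL3 libraries.

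Cytochrome c was the exception. CYC7, the low-oxygen isoform, stood at 85.3 without SO2 and 264 with it, 3.07-fold higher, but both values lay below the 395 to 726 of the other strains. CYC1, the aerobic isoform, was listed at 0 and at 4.25 and fell under the minimum mean. Hypoxic genes as a group had a median of 0.06, with 1 of 9 at least 1.5-fold higher and 0 lower. OLE1, the fatty acid desaturase, differed by -0.44, HEM13 of heme synthesis by -0.38 and SUR2, a sphingolipid hydroxylase, by -0.57. ROX1 was thus higher with SO2 while the list of hypoxic genes, which holds Rox1-repressed genes and other low-oxygen isoforms, stood near the median of all genes. The letters ATTGTT, the core of the Rox1 site on either strand, were in 6 of 9 promoters of that list and in 34.1% of 6007 promoters of 300 bases.

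**Figure D3:**
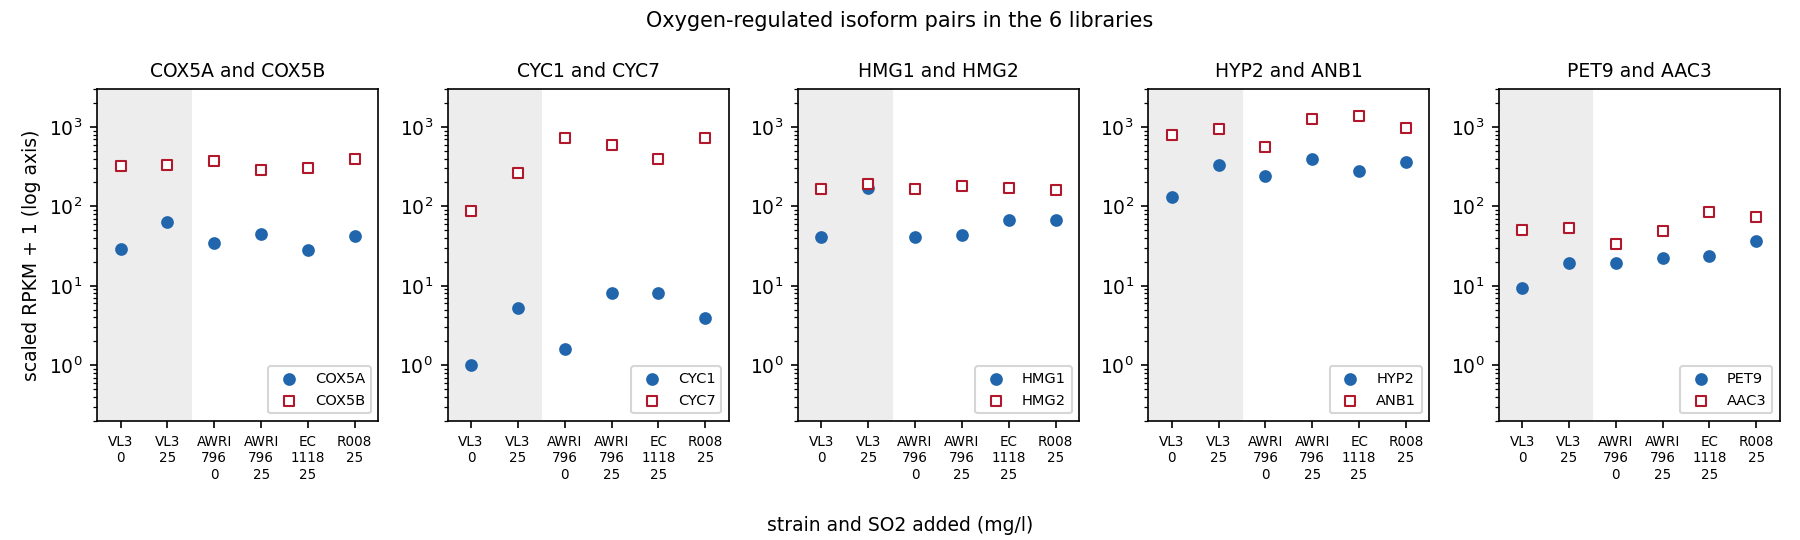
Scaled RPKM + 1 (log axis) of the aerobic (filled circles) and low-oxygen (open squares) members of 5 isoform pairs in the 6 libraries, labelled by strain and mg/l of SO2, with the VL3 libraries shaded. The distance between HMG1 and HMG2 is narrowest in VL3 with SO2, at 167 and 192 scaled RPKM.

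Ergosterol synthesis genes stood higher with SO2, most of all those of the early steps. All 25 listed genes were compared, of which 9 were at least 1.5-fold higher and 0 lower, at a median of 0.33 (0.30 to 0.50 under the alternatives). In the mevalonate and isoprenoid steps 5 of 10 were higher, at a median of 0.62, against 3 of 10 from squalene to zymosterol, at 0.10. ERG20, which makes farnesyl diphosphate, stood at 579 without SO2 and 1317 with it, 2.27-fold higher. IDI1, the isomerase before it, stood at 437 and 795, MVD1, the mevalonate diphosphate decarboxylase, at 199 and 394, and ERG9, squalene synthase, at 214 and 348. The 4 genes at least 1.5-fold higher in the later steps all act in reactions that use oxygen. ERG5, the C-22 desaturase, stood at 216 and 516, 2.38-fold higher. ERG25, the C-4 methyl oxidase, stood at 246 and 520, and CYB5, cytochrome b5, which passes electrons to it, at 237 and 525. ERG11, the C-14 demethylase, stood at 459 and 734. ERG1, the squalene epoxidase that also uses oxygen, stood at 2316 and 2310. The lowest differences were in ERG4 (-0.44), ERG27 and ERG10 (-0.36 each).

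Sterol storage and uptake genes were split. ARE2, the main sterol acyltransferase in air, stood at 106 and 193, while ARE1 stood at 978 and 634, so that the ARE1 share of the pair was 90.3% and 76.7%. ARE1 overlaps YCR049C. YEH1, a steryl ester hydrolase, stood at 232 and 506, 2.18-fold higher, and AUS1, the anaerobic sterol importer, at 1099 and 695, 1.58-fold lower. The letters TCGTATA, the sterol response element, were found on either strand in 6 of 25 ergosterol promoters, or 24%, against 4.61% of all promoters. The 6 compared genes with it had a median of 0.39 and the 19 without it 0.22.

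**Figure D4:**
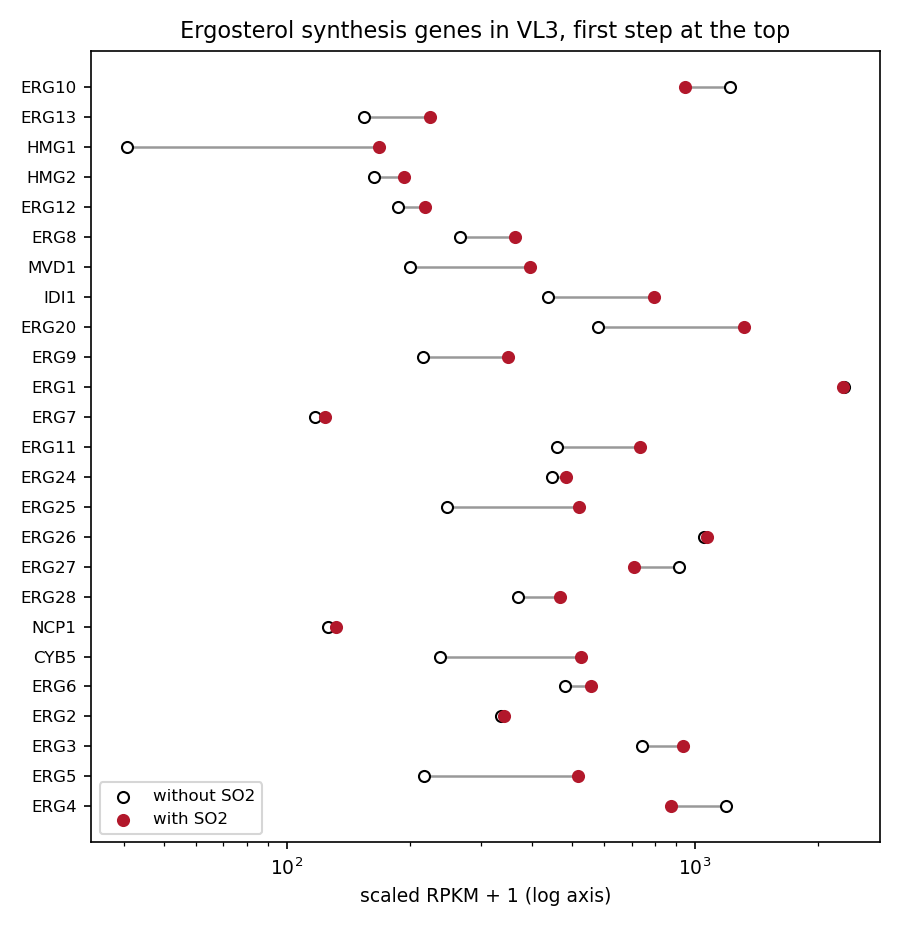
The 25 ergosterol synthesis genes in the order of the pathway from the top, as scaled RPKM + 1 (log axis), without SO2 (open circles) and with SO2 (filled circles). HMG1 shows the widest gap, and 21 of 25 filled circles lie to the right of their open circle.

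The anaerobic mannoproteins, small cell wall proteins of the PAU, TIR and DAN families, had the highest median of all lists, 1.54, with 10 of 14 compared at least 1.5-fold higher. Without the limit on low values the median was 0.68. Of these 14 genes 8 have a near-identical copy, so that their reads cannot be assigned, and the median over the other 6 was 0.41, with 3 at least 1.5-fold higher. That is below the 0.45 of the respiratory chain. The 6 still include PAU5, though PAU7, one of the 8, is a near-identical copy of it. The rank of the list without uncertain genes is therefore not settled. Among the 6, PAU23 stood at 56.6 and 191, PAU17 at 859 and 1377 and TIR3 at 301 and 454. Among the copies, PAU3 was listed at 0 without SO2 and stood at 13.3 with it. PAU5 stood at 2607 and 3042, DAN1 at 1114 and 1207 and TIR2 at 947 and 657.5. Of the 30 listed, 13 had too low a level or no value, and 3 were not analysed here.

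Respiratory chain genes stood higher with SO2, from complex III onward. Of 25 compared, 7 were at least 1.5-fold higher and 1 lower, at a median of 0.45 (0.45 to 0.62 under the alternatives). All 9 genes of complex IV and 8 of 9 of complex III lay above 0, against 2 of 4 of complex II. In complex III, QCR2 stood at 20.3 without SO2 and 48.8 with it, and RIP1, the iron-sulfur subunit, at 49.4 and 106. NDI1, the internal NADH dehydrogenase, stood at 9.35 and 18.1, whereas the external NDE2 stood at 15.02 and 6.58. The letters CCAAT were found on either strand in 21 of 27 respiratory promoters (77.8%) and in 41.8% of all. The 20 compared genes with it had a median of 0.47 and the 5 without it 0.42. Sites beyond the 300 bases were not counted.

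Other mitochondrial lists lay on the same side. ATP synthase genes had a median of 0.30, with 2 of 16 at least 1.5-fold higher, led by ATP18, a share near the 10.7% of all genes. Tricarboxylic acid cycle genes had a median of 0.27, with IDH1, a subunit of isocitrate dehydrogenase, at 81.1 and 147 and the minor citrate synthase CIT3 at 8.52 and 2.76. Mitochondrial ribosomal proteins had 17 of 73 at least 1.5-fold higher and 0 lower, at a median of 0.37, with 65 of 73 above 0. MRP1 stood at 49.9 and 122, and IMG2 at 5.65 and 18.0. Import genes had 6 of 32 higher and 0 lower, at a median of 0.29. TIM10, a chaperone of the intermembrane space, stood at 62.3 and 140, and TIM44, of the import motor, at 30.3 and 62.4. The median gene length was 462 bases in the respiratory list, 361.5 in the ATP synthase list, 660 in the mitochondrial ribosomal list and 576 in the import list. The shortest quintile of all genes had a median of 0.08, and the part of length in these medians was not tested.

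Every compared subunit of the proteasome, the protease that degrades proteins tagged with ubiquitin, stood higher with SO2. All 33 compared genes lay above 0, and did so under each of the 7 alternatives, but the differences were small, with a median of 0.36 and 6 of 33 at least 1.5-fold higher. In the lid, RPN6 stood at 91.3 without SO2 and 215 with it, 2.34-fold higher, and RPN12 at 31.5 and 64.8. SEM1, a small lid subunit, stood at 39.5 and 98.8, both far below the 444 to 812 of the other strains. In the catalytic core, PRE1 stood at 71.2 and 153, PRE6 at 263.5 and 513 and PUP2 at 383 and 619. RPN4, the activator of proteasome genes, stood at 242 and 225, a difference of -0.11. RPN6 lay below every other-strain library without SO2 and within their range, 195 to 237, with it. Like SEM1, RPN12 and PRE1 lay below every other-strain library in both VL3 libraries, at 88.6 to 138 and at 203 to 267 there.

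Chaperones of the cytosol and mitochondria stood mostly higher with SO2, and folding genes of the endoplasmic reticulum mostly lower. Of 23 chaperones of the cytosol and mitochondria, 7 were at least 1.5-fold higher and 0 lower, at a median of 0.34. Of these 7, 2 were mitochondrial. Without near-identical copies 5 of 19 were higher and 0 lower, again at 0.34. STI1, which links Hsp70 to Hsp90, stood at 13.3 and 37.3, 2.68-fold higher, and HSC82, an Hsp90, at 575 and 1045. SSC1, the mitochondrial Hsp70, stood at 128 and 234. SSA1 and SSA2, 2.29-fold and 3.53-fold higher, are near-identical copies and uncertain. In the endoplasmic reticulum 5 of 12 folding genes were at least 1.5-fold lower and 0 higher, at a median of -0.50, beside the lower HAC1. SIL1, the exchange factor of the Hsp70 Kar2, stood at 138.5 and 63.0, 2.18-fold lower. JEM1 and SCJ1, the J-proteins of Kar2, stood at 26.4 and 14.5 and at 56.8 and 33.5, CNE1, calnexin, at 39.5 and 22.7, and ERO1, the thiol oxidase, at 477 and 306.5. KAR2 itself stood at 597 and 669 and the disulfide isomerase PDI1 at 299 and 256. The 8 translocation genes had a median of -0.04, and with them the list had a median of -0.22, which moved to -0.05 without scaling.

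Nitrogen catabolite repressed genes had the lowest median of all lists, -0.74 (-0.74 to -0.57 under the alternatives). Of 29 listed, 21 were compared, with 12 at least 1.5-fold lower and 0 higher, and none of the 12 was past 2-fold. CAR1, arginase, stood at 60.8 without SO2 and 30.4 with it, 1.97-fold lower. DUR1,2, the urea amidolyase, stood at 85.2 and 44.3, and the urea transporter DUR3 at 13.5 and 7.505. All 3 ammonium permeases were lower, with MEP2 at 47.1 and 23.8, MEP1 at 14.4 and 7.28, and MEP3 at 137 and 80.4. GAP1, the general amino acid permease, stood at 20.5 and 11.04. Enzymes of glutamine and glutamate were lower too, with GLN1, glutamine synthetase, at 331 and 195, GLT1, glutamate synthase, at 370 and 237 and GDH2, a glutamate dehydrogenase, at 922 and 551. GDH1, the main enzyme that makes glutamate from ammonium and no member of the list, stood at 2565 and 2343. ASP1, an asparaginase, stood at 60.6 and 31.5, and GDH3 at 15.1 and 8.63. Without SO2, CAR1, MEP2 and ASP1 lay above every other-strain library, at 27.6 to 36.4, 20.6 to 28.6 and 29.5 to 44.5 there. With SO2 these genes lay within that range, and MEP1 was placed likewise. DUR1,2 was above the other strains in both VL3 libraries, and GDH3 within their range in both. GAP1 was above them without SO2 and below them with it. Only 3 genes lay above 0, CAN1 at 27.3 and 41.0, DAL5 at 32.3 and 40.3 and PUT2 at 82.8 and 91.5.

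The GATA letters were more frequent in that list than in all promoters, and its genes with and without them both had medians below 0. GATAAG was found on either strand in 14 of 29 listed promoters (48.3%), against 14.7% of all 6007. The 10 compared genes with a match had a median of -0.45 and the 11 without one -0.76. Sites beyond the 300 bases or with other letters were not counted, and a part of the GATA factors was not tested. MEP3 and GAP1, whose promoters are printed above with 2 matches each, were 1.70-fold and 1.79-fold lower, and CAN1, DAL5 and PUT2, the 3 above 0, are all among the genes with a match. Over all compared genes, 22.8% of the 79 with at least 2 matches were at least 1.5-fold lower, against 9.07% of the 4232 with none, but the 79 include members of this list. GLN3, a GATA activator, stood at 10.10 and 12.3, and GZF3, a GATA repressor, at 25.8 and 34.3.

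Amino acid permeases followed the same direction. Of 16 compared, 7 were at least 1.5-fold lower and 1 higher, at a median of -0.34. MUP3, a low-affinity methionine permease, stood at 158 and 72.1, TAT2, for tryptophan and tyrosine, at 70.8 and 34.4, and BAP2, for branched-chain amino acids, at 79.6 and 40.0. SSY1, the amino acid sensor, stood at 86.2 and 50.2. DIP5, for glutamate and aspartate, was the one on the other side, at 5.67 and 14.6. Autophagy genes had 2 of 21 at least 1.5-fold lower, ATG11 and ATG4, near the 10.0% of all genes. Their median was -0.25, with 17 of 21 below 0, and -0.09 without scaling. Amino acid synthesis had a median of 0.02, with ARG1 at 25.1 and 94.2 and ILV3, of branched-chain synthesis, at 638 and 333 as its extremes.

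Multidrug and weak acid exporters stood lower, with 6 of 23 at least 1.5-fold lower and 1 higher, at a median of -0.44 (-0.44 to -0.28 under the alternatives). TPO4, a polyamine exporter, stood at 1395 without SO2 and 564 with it, 2.47-fold lower. PDR10, the 1 ABC transporter past 1.5-fold, stood at 63.7 and 28.1, and QDR2 and QDR1, drug and proton antiporters, at 31.9 and 15.7 and at 15.1 and 8.79. Among the lipid-related partners, RTA1, of a family of lipid-translocating membrane proteins, stood at 22.8 and 4.09, 4.66-fold lower. PDR16, a phosphatidylinositol transfer protein of the same network, went the other way, at 209 and 668, 3.18-fold higher, against 166 to 363 in the other strains. PDR1 and PDR3, the main activators of these genes, stood at 23.8 and 21.7 and at 7.49 and 9.16. The letters CCGCGG, the core of their response element, were in 0 of 28 promoters of the list within 300 bases and in 1.37% of all.

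Cell wall genes were lower in parts. Of 32 compared, 10 were at least 1.5-fold lower and 2 higher, while the list median of -0.12 turned to 0.04 without scaling. All 4 yapsins, aspartic proteases of the cell surface, lay below 0, with YPS1 at 369 without SO2 and 127 with it, 2.90-fold lower, and YPS6 at 85.3 and 21.6, 3.82-fold lower. The glucan and chitin crosslinkers CRH1, UTR2 and CRR1 stood at 53.7 and 30.7, at 49.0 and 27.7 and at 16.3 and 4.31. GSC2, a glucan synthase subunit, stood at 613 and 390. SPI1, a wall protein of weak acid stress, was higher, at 14.0 and 33.0.

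Genes for inositol lipids also stood lower. All 5 lay below 0, at a median of -0.50, with INO1, inositol phosphate synthase, at 433 without SO2 and 218 with it, ITR1, the inositol permease, at 818 and 578, and PIS1, phosphatidylinositol synthase, at 511 and 366.5. INO2 itself differed by -0.71, in the lowest quintile of levels, and a link between INO2 and these genes was not tested. Of the 5, 2 were at least 1.5-fold lower, INO1 and GIT1. In the CDP-diacylglycerol branch of phospholipid synthesis 5 of 6 genes lay above 0, and in the Kennedy branch 2 of 5 did, at a median of -0.05. Of the former, CHO2, of phosphatidylcholine synthesis, stood at 400.4 and 616. Beta-oxidation in peroxisomes was lower as well, with 5 of 8 oxidation genes at least 1.5-fold lower and all 8 below 0. FOX2 stood at 24.0 and 9.54, POT1 at 117 and 50.8 and POX1 at 68.9 and 43.1.

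In central carbon metabolism, genes stood on both sides. All 3 pyruvate decarboxylases lay below 0, with PDC5 at 868 without SO2 and 287 with it, 3.01-fold lower, PDC6 at 29.9 and 9.08 and the major PDC1 at 1471 and 1038. Among other strains PDC5 ranged from 88.1 to 2495. ENO2, the main fermentative enolase, stood at 6140 and 12600, 2.05-fold higher and above the 3784 to 6758 of the other strains. GLK1, glucokinase, stood at 1876 and 1103, and HXK1 at 1056 and 1678. In the pentose phosphate pathway, whose median of -0.13 turned to 0.03 without scaling, ZWF1, at the entry, stood at 44.1 and 79.4, and the major GND1 at 8259 and 5733. The list from pyruvate to ethanol and acetate had a median of -0.16 that turned to 0.01 without scaling.

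Glycerol synthesis and iron uptake were each uneven. The glycerol phosphatases GPP2 and GPP1 stood at 854 and 1785 and at 47.6 and 83.2, whereas GPD2, of the step before them, stood at 53.3 and 33.0. Among the 23 compared members of the iron regulon, 6 stood past 1.5-fold above and 4 below, beside 10.7% and 10.0% of all genes. CCC2, a copper pump that serves the iron oxidase, stood at 98.0 and 258 and FRE4, a reductase, at 6.93 and 21.1. The iron permease FTR1 stood at 139 and 77.8 and its vacuolar counterpart FTH1 at 177 and 99.5. The median of the iron list, -0.03, took either sign with the scaling, at 0.13 without it.

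Cytosolic ribosomal protein genes were higher in part, with 36 of 136 at least 1.5-fold higher and 1 lower, at a median of 0.35, and without near-identical copies 28 of 96 were higher and 1 lower, again at 0.35. RPL5, of the large subunit, stood at 67.6 and 154. Ribosome biogenesis factors had a median of 0.30, with 11 of 59 higher and 3 lower. PAB1, the poly(A)-binding protein, stood at 79.0 and 161 among translation factors, of which 10 of 35 were higher and 0 lower. RNA polymerase I and III had 4 of 18 higher and 3 lower, beside 10.7% and 10.0% of all genes, at a median of 0.07.

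Histone genes all lay above 0, with 5 of 10 at least 1.5-fold higher and a median of 0.58, but 8 of 10 with quantile normalization. HTB2 stood at 26.4 and 52.5, HTB1 at 81.0 and 130 and HHO1, the linker histone, at 9.30 and 15.8. HHF1 and HHF2, which encode histone H4, are near-identical copies, and without them the median was 0.33. Replication genes had 6 of 28 at least 1.5-fold higher and 1 lower, but their median was -0.01, with 13 above 0 and 15 below. Among the 6 were MCM3, MCM6 and MCM7 of the replicative helicase, at 34.7 and 61.4, at 22.4 and 41.6 and at 20.5 and 39.4. Of the cyclins, CLN3 was 2.00-fold higher, from 3.88 to 8.78, and PCL1 2.06-fold lower, from 87.0 to 41.8. Kinetochore genes had 0 of 30 higher and 4 lower, beside 10.7% and 10.0% of all genes. Their median was -0.05, with SPC25 at 108 and 52.6.

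Stress proteins were mixed. Of 18 proteins of stress and stationary phase, 6 were at least 1.5-fold higher and 2 lower, at a median of 0.07 that turned to -0.04 without the limit on low values. CTT1, the cytosolic catalase, stood at 56.2 and 144 and DDR2 at 5.38 and 15.1, while HSP30, a membrane heat shock protein, stood at 78.8 and 38.1. Of 34 oxidative stress genes 8 were higher and 2 lower, with AHP1, a peroxiredoxin, at 599 and 1188, GSH1, the first enzyme of glutathione synthesis, at 153 and 248, and TRR2, the mitochondrial thioredoxin reductase, at 300 and 145. The letters AGGGG, the stress response element, were in 12 of 23 promoters of the stress list (52.2%) and in 22.2% of all. The phosphate regulon had 0 of 13 genes past 1.5-fold in either direction, and the 5 flocculins, too low or without a value, could not be compared. NAD synthesis had 4 of 13 lower and 0 higher, with BNA2, the first enzyme of the pathway from tryptophan, at 10.06 and 3.12. THI4, of thiamine synthesis, stood at 1181 and 2271. HEM2, at 174 and 377, was the only 1 of 8 heme synthesis genes at least 1.5-fold higher. Of those 8 genes 5 lay below 0, at a median of -0.06.

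**Figure D5:**
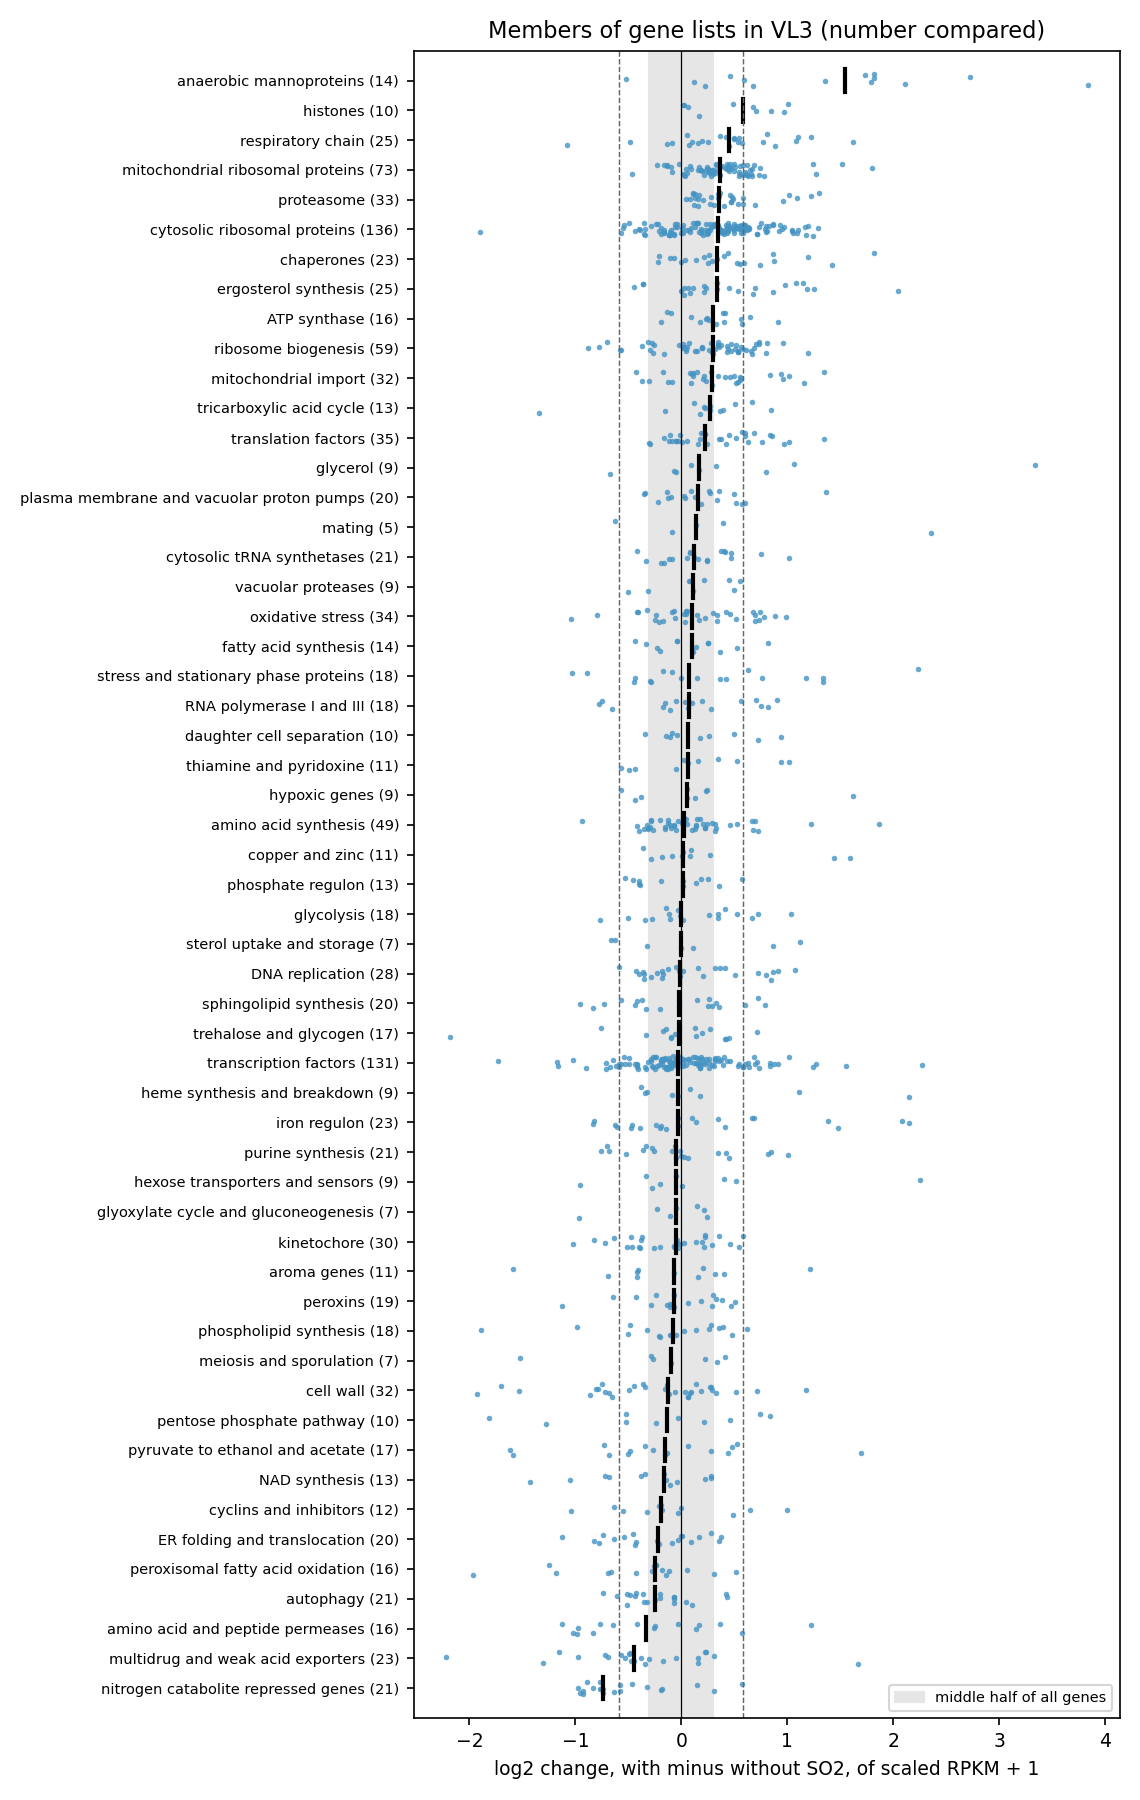
Log2 difference, with SO2 minus without, of each compared member (points) and the median (black bars) of the lists with at least 5 compared members, with the interquartile range of all genes shaded and dashed lines at 1.5-fold. Anaerobic mannoproteins stand at the top with a median of 1.54 and nitrogen catabolite repressed genes at the bottom with -0.74.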

How the data were processed

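RNA of 6 yeast libraries from 4 strains was depleted of ribosomal RNA and sequenced on SOLiD 4, per the labels' protocols. The authors deposited RPKM, per the file headers, for 6611 lines. Aligner, gene models, genome build and strand setting were not given in the sources used here. Of these lines, 2 had run on from another line and were split off, and the 8 sharing 4 systematic names were left out. No column lacked a sample. Deposited coordinates equalled those of R64 for 5860 of 5869 genes.

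RPKM were divided by median-of-ratios factors computed from 5409 genes of the 6 libraries. Deposited RPKM summed to 852487 in VL3 without SO2 and 922536 with it, and the 20 highest genes held 27.4% and 26.1%. Differences were taken on log2(scaled RPKM + 1) over genes whose deposited RPKM averaged 5 or more over both VL3 libraries. With 1 library a side no test, SD or interval was possible. The depth is unknown. Low values were divided by many trial values for the worth of 1 read, and the best trial was kept. It brought 27.8% and 34.2% within 0.1 of an integer, where chance gives 20% for a single trial. The best of many trials can lie above that by chance, so reads were not recovered.

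Coding sequences 95% or more identical along 80% or more of their length in BLAST+ 2.17.0 counted as near-identical copies, and overlaps covered at least 20% of a gene. The 80% applied to a gene's own length, so a gene could be flagged and its longer match not. Promoters were the 300 bases before the start codon in RefSeq R64. Python 3.11.15 was used with numpy 2.4.6, pandas 2.3.3, Biopython 1.88 and matplotlib 3.10.9, and the scripts were tested on simulated data. There were 57 gene lists and 7 alternatives (3 of scaling, 2 pseudocounts, 2 limits on low values).

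Named genes were the 15 highest and 15 lowest, leaving out dubious frames and near-identical copies, each transcription factor at least 1.5-fold apart, up to 6 members per list by size of difference, and the isoform pairs. Other members were named after their values were seen. The genes, lists and rules were chosen with earlier results of these data known.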

Additional observations from a re-analysis of the deposited data

Results flagged for a closer look

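Several named genes differed by at least 1.5-fold in opposite directions in VL3 and in AWRI796, each strain being represented by 1 library with SO2 and 1 without. The difference between the strains was not tested, and values are log2 differences, with SO2 minus without. RTA1, a lipid-translocating membrane protein, had the widest gap, at -2.22 in VL3 and 4.62 in AWRI796. The heme oxygenase HMX1 stood at 2.15 and -1.96. The ferric reductase FRE2 stood at 2.08 and -0.82, and AFT1, the activator of iron uptake, at 0.91 and -0.94. SCS3, of the endoplasmic reticulum, stood at -2.16 and 0.89, beside HAC1, of the unfolded protein response, at -1.18 and 0.89. INO2, the activator of inositol synthesis, stood at -0.71 and 1.11. The mitochondrial enzyme ICL2 stood at -1.83 and 1.52. HAP5, a subunit of the Hap complex, stood at 0.83 and -1.52. The factor genes HMS1 and OAF1 stood at 0.71 and -0.72 and at 0.60 and -1.17.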

How the results depend on the processing

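No paired analysis was possible because each strain and SO2 level is 1 library, and leaving out a library would leave no comparison. Of 7 alternatives, dropping the scaling factors moved all 4 counts by more than 1.5 times: genes at least 2-fold higher went from 151 to 235 and lower from 124 to 80, and genes at least 1.5-fold higher from 539 to 895 and lower from 504 to 294. A pseudocount of 5 gave 99 at least 2-fold higher and 82 lower. A minimum mean of 20 RPKM gave 100 and 79 over fewer genes, and no minimum gave 203 and 211 over more genes. Without scaling, the median turned from -0.13 to 0.029 for the pentose phosphate pathway, from -0.16 to 0.0067 for pyruvate to ethanol and acetate, and from -0.12 to 0.040 for the cell wall. For mating genes it turned from 0.14 to -0.12 at a minimum of 20 RPKM. The cause was not tested beyond the construction of each alternative. Of 56 lists, 23 had a median above 0 under every setting, 9 one below 0, and in 24 the sign depended on the setting. Of the genes named by the rule, 0 of the 258 at least 1.5-fold apart changed sign under these 7 alternatives, and 6 of the 114 closer ones did. Genes named outside the rule with differences near 0, such as ERG1 and RPN4, also turn positive without scaling. Depth is unknown, so the counting error of low genes could not be given.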
